A study of Mus musculus with 14 samples.

Results

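The fibroblast growth factor (FGF) system was measured here in whole fetal mouse ovaries through 10 genes: the ligands Fgf1, Fgf2, Fgf7, Fgf9 and Fgf10, the receptors Fgfr1, Fgfr2 and Fgfr3, and the feedback genes Spry2 and Dusp6. Every probe set whose only gene symbol in the platform annotation was one of these was taken, which gave 20 of 45037 probe sets other than controls, and 10 of 18193 genes. The rule itself holds no expression value, but the genes were proposed with earlier results of these data known. Of the 20, 14 probe sets from 8 genes had a mean signal over all arrays above the filter on low values (70.6), and these were tested; Fgf7 and Fgf10 lay below it, as did 1 probe set each of Fgf1, Fgfr2 and Fgfr3.

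Knockout ovaries came from WT1-CreERT2; COUP-TFII flox/flox embryos, in which tamoxifen deletes Coup-tfII (symbol Nr2f2, a nuclear receptor) in cells that express the Wt1-driven recombinase, and the others came from control embryos. All dams received tamoxifen at E11.5 and E12.5 (2 mg per 10 g of body weight), so controls were exposed to it too, and all embryos were of a background mixed from Swiss Webster, C57BL/6 and B6129SF1/J. Expression was read on 4 knockout and 4 control arrays at E16.5 and on 3 knockout and 3 control arrays at E14.5, labelled as biological replicates. The sources used here do not state the alleles behind the word control, or whether ovaries were pooled.

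FGFs are secreted proteins that bind receptor tyrosine kinases on neighbouring cells, with heparan sulfate chains on the cell surface as a required partner. The receptors signal through adaptors, RAS and the MAP kinases, and the pathway raises its own inhibitors: Sprouty proteins act on the path to RAS, and the phosphatase encoded by Dusp6 removes the activating phosphates from ERK. In the mouse gonad, Fgf9 acting on Fgfr2 is best known for the testis, where it supports Sertoli cell fate, while Fgf7 and Fgf10 are mesenchymal ligands of the epithelial form of Fgfr2 in many organs.

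Fgf2 and Fgfr2 are the members on which the E16.5 results below turn, so their promoters are shown, as given by RefSeq on GRCm38.p6 from 250 bases before to 50 after the start. The Fgf2 promoter lies at chr3:37348403-37348702 on the plus strand and the Fgfr2 promoter at chr7:130266759-130267058 on the minus strand. Capitals mark the GC box GGGCGG, the motif of SP-family factors; both strands were searched.
Fgf2: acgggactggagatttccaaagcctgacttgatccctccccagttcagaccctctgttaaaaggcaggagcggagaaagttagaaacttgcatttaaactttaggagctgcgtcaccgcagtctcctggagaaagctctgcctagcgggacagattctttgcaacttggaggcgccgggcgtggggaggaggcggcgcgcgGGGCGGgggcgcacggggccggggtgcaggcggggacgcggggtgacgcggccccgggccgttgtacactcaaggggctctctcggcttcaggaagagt
Fgfr2: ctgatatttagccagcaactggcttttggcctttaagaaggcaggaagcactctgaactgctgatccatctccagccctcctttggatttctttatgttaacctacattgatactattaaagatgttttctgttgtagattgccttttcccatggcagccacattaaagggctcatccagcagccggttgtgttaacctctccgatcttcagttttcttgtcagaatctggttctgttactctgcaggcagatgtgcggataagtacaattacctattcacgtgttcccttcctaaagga
A second motif searched on both strands, AGGTCA, is the half-site to which nuclear receptors of the COUP-TF kind bind as pairs. Promoter entries were found for 8 of the 10 genes, and Fgf1 and Fgfr1 were not searched. AGGTCA had 1 match each in the promoters of Fgf7 and Spry2, 2 of the 8 genes, against 16.3% of 32851 promoters of the same length. GGGCGG was found in 3 of the 8 genes, Fgf2, Fgf10 and Fgfr3, against 35.7% of promoters. The windows printed for Fgf2 and Fgfr2 held no AGGTCA. No promoter of these genes held both motifs, so no matches overlapped, and a match in such a window is a description of the sequence alone.

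Defining markers of the labelled tissue were present. Dazl and Ddx4 (germ cells) and Foxl2 (pre-granulosa cells) had signals of at least 1097 on every array, and Amh, a Sertoli cell hormone, was at most 12.46. Foxl2 was nonetheless lower in knockouts at E16.5, at 1243 to 1684 in knockouts and 2319 to 2672 in controls, without passing the threshold (log2 change -0.83 ± 0.20, limma adjusted p = 0.0581). Germ cell signals were far lower at E16.5. Dazl averaged 3316 at E16.5 and 13377 at E14.5 in knockouts, and 3199 at E16.5 and 17617 at E14.5 in controls. Sox9, a factor of Sertoli cells that other cells express too, was at 238 to 350 in knockouts and 235 to 368 in controls at E16.5, and at 54.6 to 107 in knockouts and 50.1 to 94.2 in controls at E14.5. Of the 6 probe sets of Nr2f2, 4 were tested; all 4 had every knockout array below every control at E16.5, with 2 past the threshold as lower. At E14.5, 1 of the 4 did not overlap and 0 passed with limma, with 2 at an unadjusted p under 0.05. The brightest Nr2f2 probe set averaged 2534 ± 575 in knockouts and 4332 ± 467 in controls at E16.5 (SD, n = 4 each), which leaves RNA read by this probe set in the knockout ovary. Median signal per array was 118 to 136 at E16.5 and 90.01 to 102 at E14.5. The 3' minus 5' difference of Gapdh, a log2 measure of RNA and labelling quality, was 0.94 to 1.63 in E16.5 knockouts and 1.67 to 1.83 in E16.5 controls, so it separated those groups. It was -0.37 to -0.29 in E14.5 knockouts and -0.42 to -0.06 in E14.5 controls. Knockout replicates 1 and 4 at E16.5 also had a bioB hybridization control of 10843 and 18373, while the remaining E16.5 arrays were at 4555 to 6397.

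At E16.5, Fgf2 was lower in knockout ovaries, and it was the only 1 of the 14 tested FGF probe sets past the threshold. Over all 27022 probe sets tested, 0.385% passed as lower and 0.548% as higher, 0.933% in all. Fgf2, a ligand held on heparan sulfate that binds several FGF receptors, gave signals of 421, 474, 512 and 358 in the 4 knockouts, against 879, 801, 827 and 753 in the 4 controls. Every knockout array lay well below every control array. The mean was 441 ± 66.6 in knockouts and 815 ± 52.7 in controls (SD, n = 4 each), so knockouts held 54.1% of the control signal. On the log2(signal + 16) scale Fgf2 fell by 0.87 ± 0.15 (SE; 95% interval -1.19 to -0.55; limma adjusted p = 0.00987). The call ended when the Gapdh difference was added as a covariate (-0.74 ± 0.20, limma adjusted p = 0.204) and without knockout replicates 1 and 4 (-0.71 ± 0.17, limma adjusted p = 0.198). Over all tested probe sets, the 252 calls at E16.5 became 11 with that covariate and 27 without those replicates.

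With those arrays set aside the order was the same: knockout replicates 2 and 3, at 474 and 512, were both below the lowest control of 753. These knockouts also had Gapdh differences, of 1.63 and 1.58, below those of every E16.5 control (1.67 to 1.83). Their order therefore cannot tell genotype apart from this array measure. With any 1 of the 14 arrays left out, Fgf2 kept its call, with log2 changes of -0.94 to -0.78. The limma adjusted p was then 0.00912 to 0.0485, the highest just under the threshold, without E16.5 control replicate 3. Only 1 probe set measures Fgf2, so no second probe set stands beside this value. In RNA from a whole organ, fewer cells of a type and less RNA per cell cannot be told apart.

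**Figure D1:**
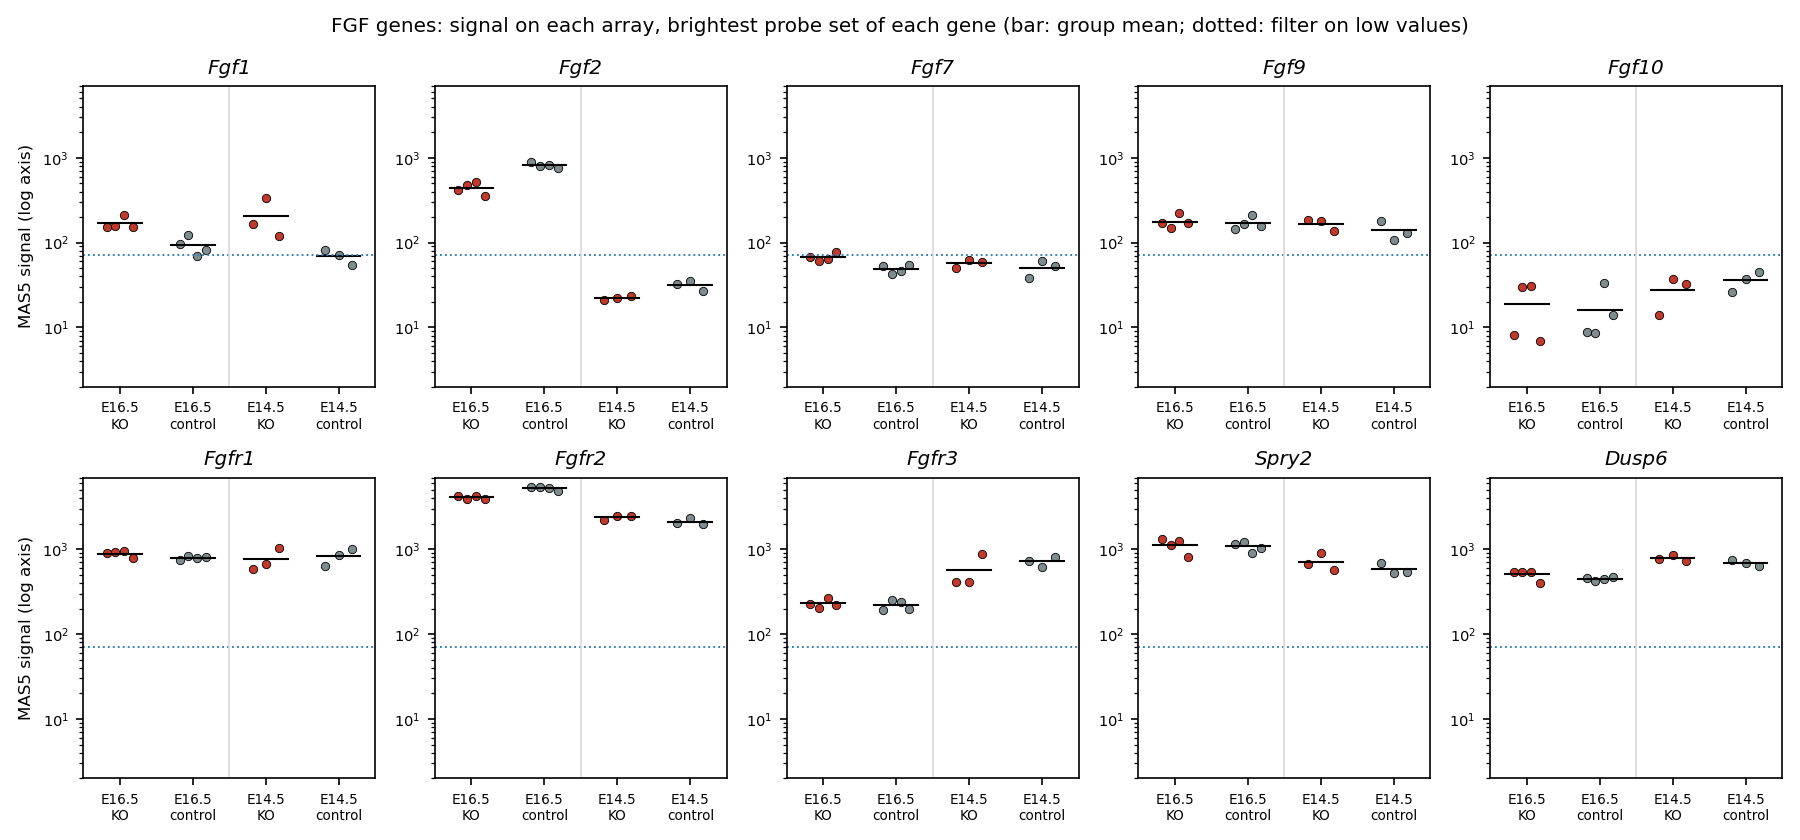
MAS5 signal (log axis) of the brightest probe set of each of the 10 FGF genes on every array, by group, with the group mean as a bar and the filter on low values as a dotted line. Fgf2 was at 358 to 512 in E16.5 knockouts and 753 to 879 in E16.5 controls, while Fgf7 and Fgf10 lay around or below the filter.

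Among the receptors at E16.5, Fgfr2 had lower signals in knockouts on both of its tested probe sets, and neither passed the threshold. Fgfr2 is the receptor for Fgf9 in the gonad and, in its epithelial form, for Fgf7 and Fgf10. Its brightest probe set read 4262, 3950, 4264 and 3896 in knockouts, against 5399, 5369, 5297 and 4859 in controls. The groups did not overlap, and the log2 change was -0.35 ± 0.09 (SE; 95% interval -0.54 to -0.16; limma adjusted p = 0.0697). The second probe set gave 1810, 2451, 2214 and 2047 in knockouts, against 2652, 2783, 2993 and 2537 in controls. Here too all knockouts lay below all controls, with a log2 change of -0.37 ± 0.12 (limma adjusted p = 0.156). The remaining, dim probe set of Fgfr2 was at 50.6 to 74.9 in knockouts and 61.6 to 90.1 in controls, so these groups overlapped.

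Fgfr1, a receptor widely expressed in mesenchyme, did not separate the E16.5 groups on any of its 3 probe sets, whose log2 changes were -0.08 to 0.16. Its brightest probe set was at 784 to 953 in knockouts and 748 to 824 in controls, with a 95% interval of -0.18 to 0.50 for the log2 change. Fgfr3, the receptor best known for restraining bone growth, was at 224, 203, 269 and 223 in knockouts and 190, 250, 240 and 196 in controls. The Fgfr3 groups overlapped, and the log2 change of 0.07 ± 0.20 had a 95% interval of -0.36 to 0.50.

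Fgf1 is the ligand that binds all FGF receptor forms, and at E16.5 its signals were higher in knockouts than in controls without passing the threshold. The brightest probe set read 153, 158, 209 and 155 in knockouts, against 96.4, 123, 70.1 and 81.2 in controls. The groups did not overlap, and the log2 change was 0.78 ± 0.25 (SE; limma adjusted p = 0.147). The second tested probe set, for which the annotation gives the same source sequence, read 169, 191, 302 and 144 in knockouts, against 79.2, 164, 93.6 and 107 in controls. Its lowest knockout lay below its highest control, and its log2 change was 0.77 ± 0.28 (limma adjusted p = 0.185). The remaining probe set was dim, at most 56.8 in knockouts and 59.7 in controls, and did not separate the groups.

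The remaining ligands differed little or were dim at E16.5. Fgf9 was at 150 to 222 in knockouts and 145 to 213 in controls on its brighter probe set, with overlapping groups and a log2 change of 0.06 ± 0.19. The 95% interval of that change was -0.34 to 0.45. Fgf7 read 67.2, 61.1, 63.5 and 77.3 in knockouts on its brighter probe set, against 52.9, 43.0, 46.7 and 54.4 in controls. On this probe set all knockouts were above all controls, but it lay below the filter. In a fit of all probe sets its log2 change was 0.35 ± 0.20 (limma adjusted p = 0.525). The other Fgf7 probe set, also below the filter, overlapped, at 35.3 to 79.5 in knockouts and 24.3 to 61.1 in controls. Its log2 change in that fit was 0.22 ± 0.26 (limma adjusted p = 0.811). Fgf10 was at 6.85 to 31.0 in knockouts and 8.64 to 33.0 in controls, too dim for a comparison.

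The feedback genes, which the pathway itself raises in many tissues, did not separate the E16.5 groups. Spry2 read 1322, 1123, 1245 and 804 in knockouts, against 1158, 1226, 913 and 1024 in controls. Its log2 change was 0.04 ± 0.17, with a 95% interval of -0.32 to 0.40, and the lowest of the 8 values was knockout replicate 4. Dusp6 read 539, 542, 542 and 399 in knockouts, against 458, 423, 446 and 467 in controls. For Dusp6, 3 of the 4 knockouts lay above all controls and knockout replicate 4 below them, with a log2 change of 0.16 ± 0.13 (limma adjusted p = 0.573).

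Across the 14 tested FGF probe sets at E16.5, 9 log2 changes were positive and 5 negative, with a median of 0.06 against 0.02 over all tested probe sets. The groups did not overlap for 4 of them, 1 higher and 3 lower, where 10.1% of all tested probe sets had such groups, 4.85% higher and 5.20% lower. An unadjusted p under 0.05 was reached by 5 of the 14, against 16.1% of all tested probe sets. Some of these 5 read the same gene, and by brightest probe sets it was 3 of 8 genes, against 18.2% of all genes.

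**Figure D2:**
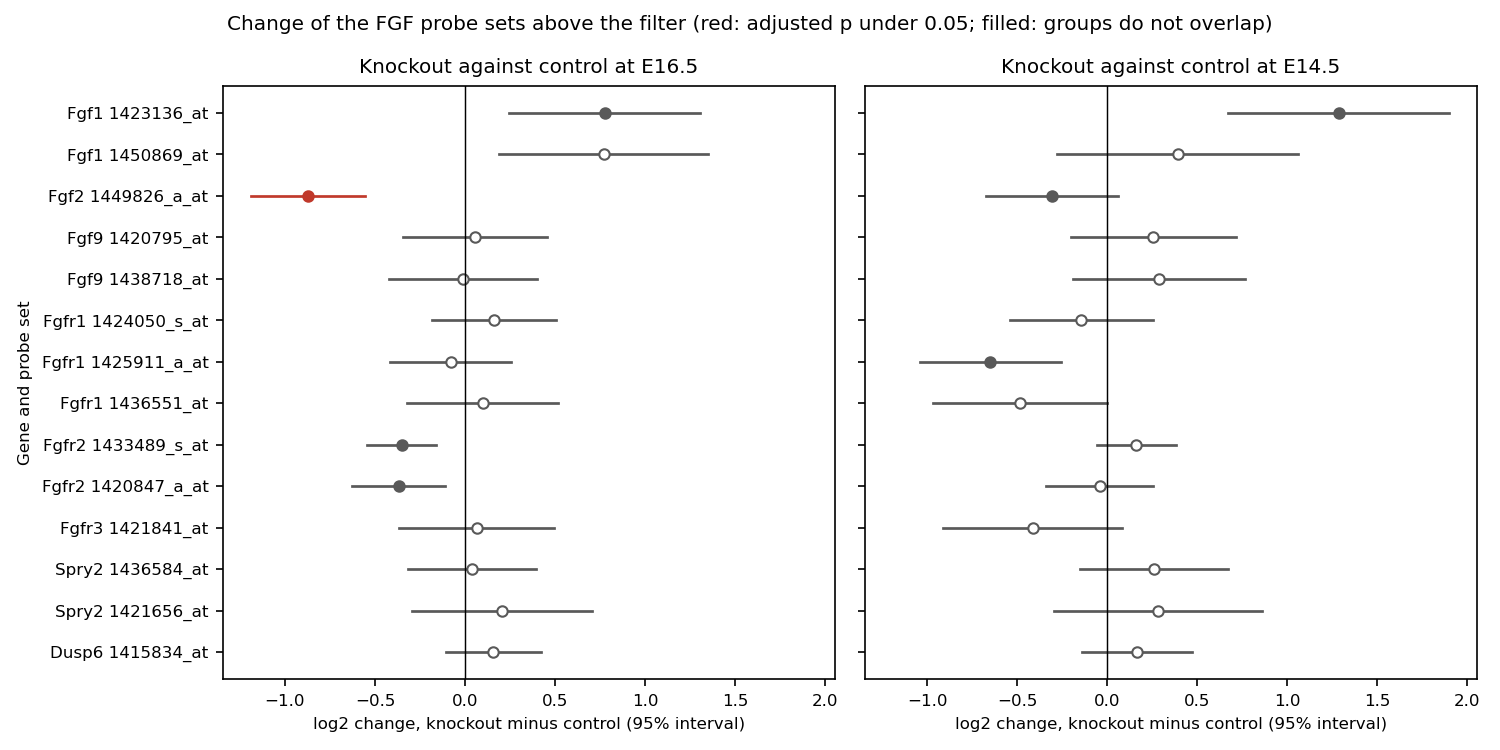
Log2 change (knockout minus control, with 95% intervals) of the 14 tested FGF probe sets at E16.5 on the left and E14.5 on the right; filled points have groups that do not overlap, and red marks an adjusted p under the threshold. The red point is Fgf2 at E16.5 (-0.87), and the highest point at either stage is Fgf1 at E14.5 (1.29).

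At E14.5, 0 of the 14 FGF probe sets passed the threshold with limma, and 3 had an unadjusted p under 0.05. Over all tested probe sets, 0.0111% passed and 8.10% had such an unadjusted p. By brightest probe sets, 1 of 8 FGF genes had one, against 8.62% of all genes. The groups did not overlap for 3 FGF probe sets, 1 higher and 2 lower, against 11.4% of all tested, 6.49% higher and 4.88% lower. The median log2 change was 0.16 over the FGF probe sets and 0.01 over all tested.

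The highest value was that of Fgf1, which read 165, 335 and 121 in E14.5 knockouts, against 81.9, 71.0 and 54.7 in controls. All 3 knockouts were above all 3 controls, but they differed widely among themselves, with a mean of 207 ± 113 in knockouts and 69.2 ± 13.7 in controls (SD, n = 3 each). The log2 change was 1.29 ± 0.29 (limma adjusted p = 0.195). Without knockout replicate 3, the lowest of the knockouts, it was 1.58 ± 0.29 and passed (limma adjusted p = 0.0160). In that fit 274 of all 27022 tested probe sets passed (1.01%). Without knockout replicate 2, the highest of the knockouts, it was 0.90 ± 0.26 and did not pass (limma adjusted p = 0.508). On the second Fgf1 probe set the values were 63.7, 114 and 47.9 in knockouts, against 48.9, 70.1 and 36.5 in controls. Those groups overlapped, with a log2 change of 0.39 ± 0.32 (limma adjusted p = 0.811), so the probe sets of Fgf1 gave unequal sizes at this stage.

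Fgf2 was dim at E14.5, at 21.3, 22.5 and 23.5 in knockouts, against 32.2, 35.6 and 26.9 in controls. The knockouts all lay below the controls, yet every value was under the filter signal of 70.6, and the log2 change of -0.30 ± 0.17 did not pass (limma adjusted p = 0.704). Fgf9 read 184, 182 and 136.9 in knockouts, against 180, 108 and 130 in controls, with overlapping groups and a log2 change of 0.26 ± 0.22. On its brighter probe set Fgf7 was at 49.8 to 62.2 in knockouts and 38.7 to 60.05 in controls. Fgf10 was at 14.02 to 37.3 in knockouts and 26.5 to 45.4 in controls.

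Of the receptors at E14.5, the separated groups were those of 1 Fgfr1 probe set. It read 45.7, 79.7 and 83.7 in knockouts, against 111, 103 and 133 in controls, and all knockouts lay below all controls. Its log2 change was -0.65 ± 0.18 (limma adjusted p = 0.334). The brightest Fgfr1 probe set read 580, 668 and 1027 in knockouts, against 636, 854 and 996 in controls. These groups overlapped, with a log2 change of -0.14 ± 0.19, and the remaining probe set, at -0.48 ± 0.23, also overlapped.

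Fgfr2 read 2188, 2461 and 2452 in E14.5 knockouts, against 2045, 2345 and 1960 in controls. The groups overlapped, with a log2 change of 0.16 ± 0.10 (95% interval -0.06 to 0.38), and its second probe set gave -0.04 ± 0.14. Fgfr3 read 417, 413 and 886 in knockouts, against 731, 621 and 814 in controls. Knockout replicate 3 was the highest of the 6 Fgfr3 values and the other knockouts were the lowest, with a log2 change of -0.41 ± 0.24 (limma adjusted p = 0.704). Spry2 was at 575 to 894 in knockouts and 530 to 690 in controls, with a log2 change of 0.26 ± 0.20. Dusp6 was at 719 to 862 in knockouts and 642 to 743 in controls, with a log2 change of 0.17 ± 0.14, and both feedback genes had overlapping groups.

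**Figure D3:**
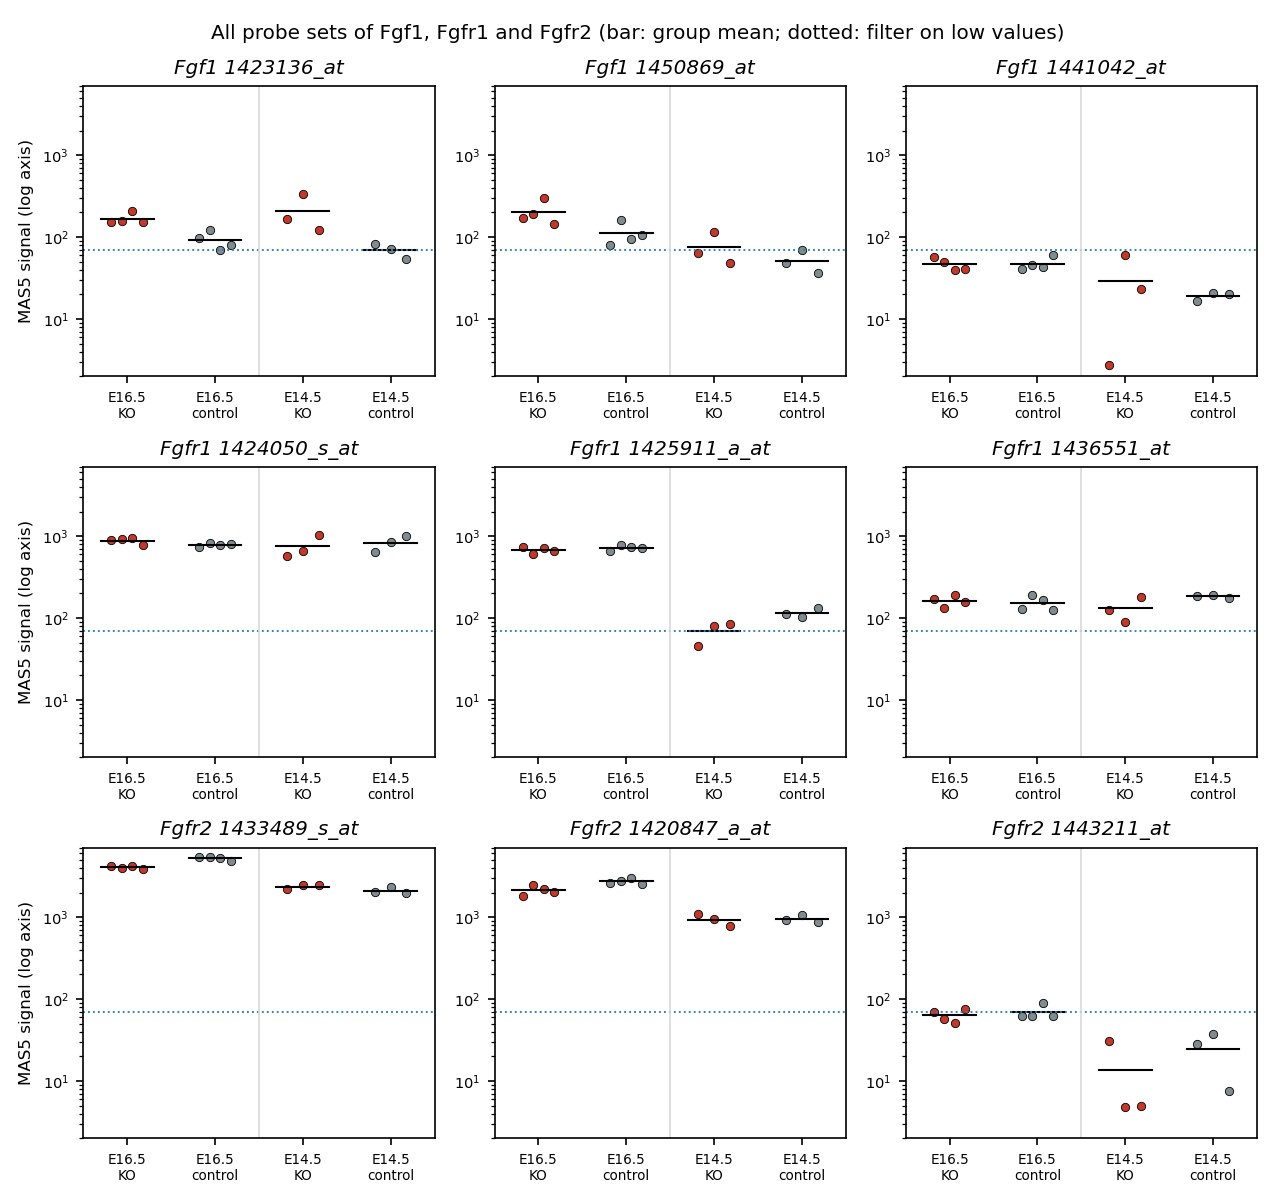
MAS5 signal (log axis) on every array for the 3 probe sets each of Fgf1, Fgfr1 and Fgfr2, by group, with the group mean as a bar and the filter on low values as a dotted line. The 2 bright Fgfr2 probe sets have E16.5 knockouts below E16.5 controls, and 1 of the Fgfr1 probe sets is at 605 to 774 on E16.5 arrays and 45.7 to 133 on E14.5 arrays while the others do not separate the stages.

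Whether the effect of the knockout differed by stage, E16.5 minus E14.5, was tested directly, and 0 of the 14 FGF probe sets passed with limma. The count over all 27022 tested probe sets was 0 (0%), with 2276 at an unadjusted p under 0.05 (8.42%), and 3 of the 14 FGF probe sets had such a p. Fgfr2 had a difference of -0.52 ± 0.14 on its brightest probe set (unadjusted p = 0.00160, limma adjusted p = 0.448). The difference for Fgf2 was -0.57 ± 0.23 (unadjusted p = 0.0247, limma adjusted p = 0.577), with its E14.5 signals under the filter. The same Fgfr1 probe set that separated the E14.5 groups had a difference of 0.57 ± 0.24 (unadjusted p = 0.0327, limma adjusted p = 0.586). The effects at the stages are therefore not shown to differ for any tested member.

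Of the 14 tested probe sets, 7 were higher and 2 lower at E16.5 than at E14.5 in knockouts, and 7 were higher and 2 lower in controls. These counts stand against a background of 65.3% of all tested probe sets called in knockouts (35.5% higher and 29.8% lower) and 68.0% in controls (36.8% higher and 31.2% lower), so the share of FGF probe sets called was near the background. By brightest probe sets, Fgf2, Fgfr2 and Spry2 rose and Fgfr3 and Dusp6 fell in both genotypes. Every E16.5 array had a Gapdh 3' minus 5' difference of 0.94 to 1.83 and every E14.5 array one of -0.42 to -0.06, and bioB was 4555 to 18373 at E16.5 and 1429 to 1940 at E14.5. Stage and these array measures cannot be told apart. With the Gapdh difference as a covariate, 2 of the 14 probe sets passed in knockouts and 3 in controls. In the same fit 12.9% of all tested probe sets passed in knockouts and 7.48% in controls. By brightest probe sets, the calls of Spry2, Fgfr3 and Dusp6 ended with that covariate in both genotypes (limma adjusted p 0.243 to 0.704), and the call of Fgfr2 ended in knockouts (0.0996). Fgf2 kept its call in both, but it was among the tested probe sets only through its E16.5 signals.

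Fgf2 rose with stage in both genotypes. Its mean signal was 441 at E16.5 and 22.4 at E14.5 in knockouts, and 815 at E16.5 and 31.6 at E14.5 in controls. All E14.5 arrays lay under the filter signal, and Fgf2 passed the filter only through its E16.5 signals, so the size of the change has only a lower bound. With each E14.5 array set at the filter signal, Fgf2 was at least 6.19-fold higher at E16.5 in knockouts and at least 11.53-fold higher in controls. Its stage p-values are not given, as its place among the tested probe sets rested on those E16.5 signals.

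Fgfr2 rose by 0.79 ± 0.10 on the log2 scale in knockouts (limma adjusted p = 1.70e-06) and by 1.302 ± 0.10 in controls (limma adjusted p = 2.92e-09), and both of its tested probe sets passed in each genotype. Fgfr3 fell by 1.17 ± 0.22 in knockouts (limma adjusted p = 0.000163) and by 1.65 ± 0.22 in controls (limma adjusted p = 3.62e-06). All E16.5 arrays lay below all E14.5 arrays for Fgfr3 in each genotype on this probe set. The dim probe set of Fgfr3, just under the filter, averaged 79.4 at E16.5 and 52.2 at E14.5 in knockouts and 80.0 at E16.5 and 63.7 at E14.5 in controls, and its stages overlapped. For Fgfr1 the probe sets disagreed: 1 rose by 3.06 in knockouts, where 1 of 3 E14.5 arrays was under the filter signal, and by 2.49 in controls, while the others had log2 changes of 0.26 and 0.31 in knockouts and -0.04 and -0.27 in controls and did not pass.

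Of the feedback genes, Spry2 rose and Dusp6 fell with stage. Spry2 rose by 0.65 ± 0.18 in knockouts (limma adjusted p = 0.00489) and by 0.87 ± 0.18 in controls (limma adjusted p = 0.000439), and its second probe set was also called in both. That probe set was dim at E14.5, where 2 of 3 knockout arrays and 3 of 3 control arrays lay under the filter signal. It averaged 350 at E16.5 and 62.2 at E14.5 in knockouts and 306 at E16.5 and 48.2 at E14.5 in controls. The call for the first in knockouts also ended when arrays were centred on their medians (log2 change 0.32 ± 0.19). Dusp6 fell by 0.62 ± 0.14 in knockouts (limma adjusted p = 0.000667) and by 0.61 ± 0.14 in controls (limma adjusted p = 0.000697). Fgf9 did not pass for stage on either probe set, and Fgf1 passed as higher at E16.5 on its second probe set but not on its brightest; the second averaged 202 at E16.5 and 75.2 at E14.5 in knockouts and 111 at E16.5 and 51.8 at E14.5 in controls, with most E14.5 arrays under the filter signal.

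Other genes of the FGF pathway were read by their brightest probe set in 6 lists. At E14.5, 0 of their 47 tested genes passed with limma (3 at an unadjusted p under 0.05, against 8.62% of all genes by their brightest probe sets), and at E16.5, 2 passed, both as lower in knockouts: Sulf2 and Shc1. Over the brightest probe sets of all 12381 genes tested, 0% passed at E14.5, and 1.14% passed at E16.5, 0.380% as lower and 0.759% as higher. Sulf2, an extracellular enzyme that trims sulfates from heparan sulfate and so changes how FGFs bind, was 1 of 15 tested genes of heparan sulfate and binding proteins. It read 2918, 3522, 3425 and 2458 in E16.5 knockouts, against 5489, 4735, 5093 and 4877 in controls. All knockouts lay below all controls, and Sulf2 fell by 0.72 ± 0.14 (SE; limma adjusted p = 0.0183). Shc1, an adaptor that links activated receptors to the RAS exchange factor through Grb2, was 1 of 11 tested signal transducers.

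Shc1 read 1058, 1178, 1246 and 1064 in E16.5 knockouts, against 1619, 1612, 1470 and 1683 in controls. These groups did not overlap either, and Shc1 fell by 0.49 ± 0.11 (limma adjusted p = 0.0435). The Sulf2 call ended with the Gapdh covariate (limma adjusted p = 0.242), without knockout replicates 1 and 4 together (0.306), and without knockout replicate 1 or 4 or control replicate 1 or 3 (0.0592 to 0.0724). The Shc1 call ended in 12 of 26 alternatives, among them each of those and the fit with no filter.

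The lists of other feedback inhibitors and of transcriptional targets held no gene past the threshold at E16.5 with limma; 4 of the 8 feedback inhibitors and 3 of the 5 targets tested had an unadjusted p under 0.05, against 18.2% of all genes by their brightest probe sets. Of those 4 feedback inhibitors 3 were higher in knockouts, and Spred1, an inhibitor of the path from RAS to ERK, was lower (log2 change -0.26 ± 0.12, limma adjusted p = 0.309). Of 8 tested feedback inhibitors, 7 had a positive log2 change at E16.5, with a list median of 0.33 against 0.05 over the brightest probe sets of all genes tested. Of 5 tested targets, 4 were positive, with a median of 0.36, and the list holds Fos, which had a log2 change of 1.01 ± 0.31 (limma adjusted p = 0.131). The 4 tested other ligands had a median of 0.34, and the 4 tested other receptors and coreceptors one of -0.11. At E14.5 the medians of the 6 lists were -0.13 to 0.20. Positive changes were as many or more at E14.5, in 7 of the 8 feedback inhibitors (median 0.175) and 5 of the 5 targets (median 0.10). The share of positive changes over all genes was not counted.

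**Figure D4:**
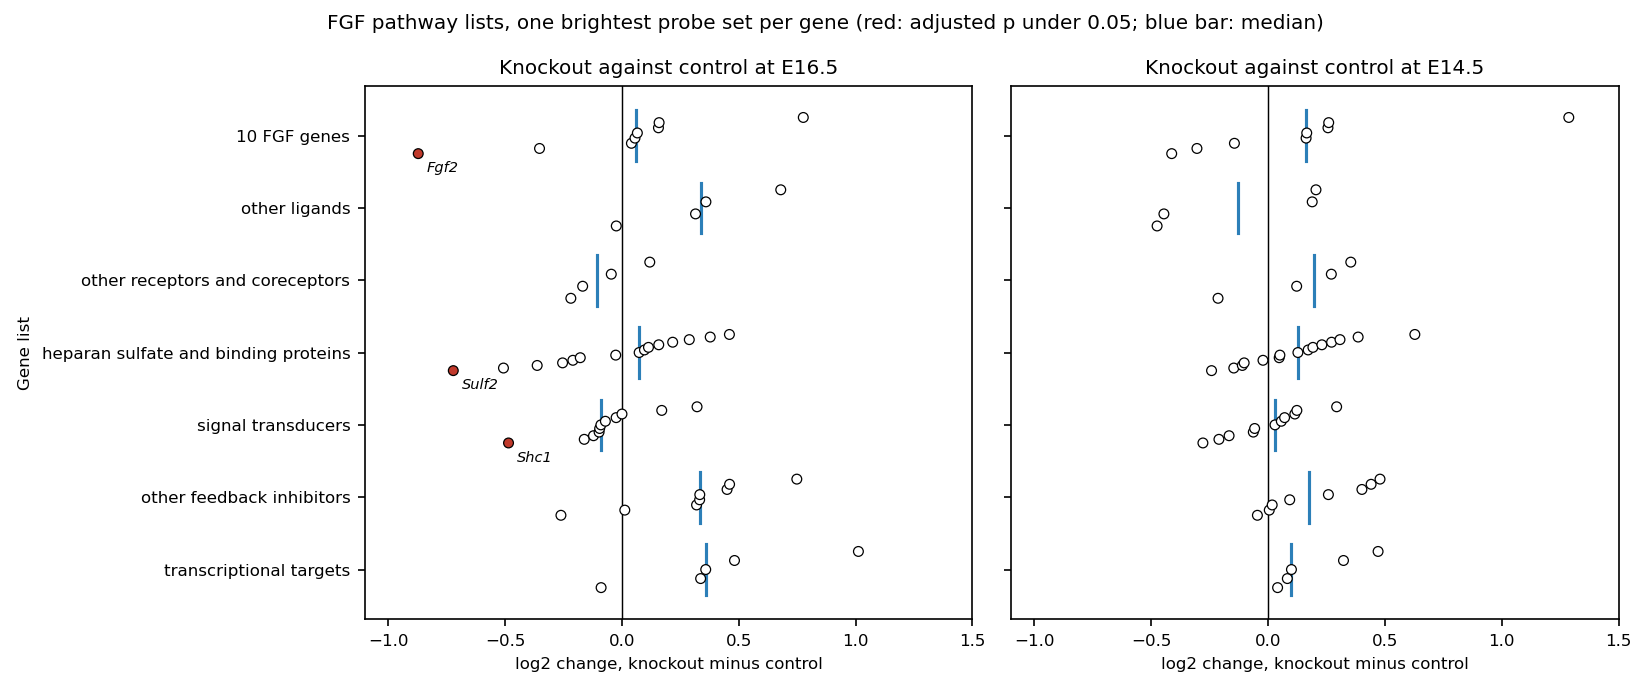
Log2 change (knockout minus control) at E16.5 on the left and E14.5 on the right for the tested genes of the 10 FGF genes and 6 pathway lists, each gene by its brightest probe set, with the list median as a blue bar. The genes past the threshold, in red, are Fgf2 (-0.87), Sulf2 (-0.72) and Shc1 (-0.49), all at E16.5.

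With stage, the pathway lists moved in both directions. Of the 15 heparan sulfate and binding genes, 8 rose and 2 fell in knockouts, and 10 rose and 3 fell in controls; Gpc4, a cell surface heparan sulfate proteoglycan, rose by 1.13 ± 0.14 in knockouts and by 1.51 ± 0.14 in controls. Of 11 signal transducers, 3 rose and 5 fell in knockouts and 4 rose and 4 fell in controls, and Shc1 rose by 1.54 ± 0.12 in knockouts and by 2.06 ± 0.12 in controls. Flrt1, a membrane protein that can associate with FGF receptors, rose by 3.65 ± 0.25 in knockouts and by 3.60 ± 0.25 in controls, against dim E14.5 signals of 47.1 to 117 in knockouts and 68.8 to 148 in controls. Fgf13, an intracellular FGF homologue, fell by 0.80 ± 0.24 in knockouts and by 1.25 ± 0.24 in controls. Among the feedback inhibitors, 3 rose and 2 fell in each genotype, with Spred1 at 0.50 ± 0.13 in knockouts and 0.85 ± 0.13 in controls. Not all probe sets of these genes ran the same way: a second of Flrt1 averaged 287 at E16.5 and 355 at E14.5 in knockouts and 301 at E16.5 and 410 at E14.5 in controls, and another of Spred1 averaged 1290 at E16.5 and 1774 at E14.5 in knockouts and 1622 at E16.5 and 2058 at E14.5 in controls. Etv5, an ETS factor that FGF signalling raises in many tissues, fell by 1.18 ± 0.21 in knockouts and by 1.48 ± 0.21 in controls. The background of these counts is that 62.6% of genes in knockouts (28.5% higher and 34.1% lower) and 66.0% in controls (29.9% higher and 36.1% lower) passed by their brightest probe sets.

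Markers of the cell types of the ovary and its neighbours were read beside these results, and their part in the FGF values was not tested. Over the brightest probe sets of all genes, 1.14% passed at E16.5 and 18.2% had an unadjusted p under 0.05, and these shares were 0% and 8.62% at E14.5. Of 11 marker lists, 4 had summed signals at E16.5 that did not overlap, all higher in knockouts. Surface epithelium was at 14233 to 17998 in knockouts and 12149 to 13349 in controls, with 1 of 7 markers past the threshold. Endothelium was at 3372 to 4289 in knockouts and 2926 to 3299 in controls, with 1 of 6 higher and 1 of 6 lower. Macrophage was at 2768 to 5802 in knockouts and 2324 to 2710 in controls, with 0 of 6 past with limma and 4 at an unadjusted p under 0.05. Adrenal cortex was at 780 to 1109 in knockouts and 315 to 423 in controls, with 2 of 3 tested markers higher, while its defining enzyme gene Cyp11b1 was at most 10.4 in knockouts and 8.001 in controls. Interstitium, the compartment in which Nr2f2 is best known, had 3 of 8 markers lower and overlapping sums of 12104 to 17560 in knockouts and 16790 to 21462 in controls. Pre-granulosa sums also overlapped, at 12612 to 14625 in knockouts and 14415 to 15831 in controls, with 0 of 8 markers past with limma and 2 at an unadjusted p under 0.05. In the Schwann and neural list, S100b passed as higher (log2 change 1.04 ± 0.21, limma adjusted p = 0.0248). The only other tested marker of that list was lower, at -1.26, without passing. Its sums overlapped, at 272 to 374 in knockouts and 373 to 485 in controls. Wt1, whose promoter drives the recombinase, was at 3156 to 3465 in E16.5 knockouts and 3986 to 4431 in E16.5 controls, apart but not past the threshold (limma adjusted p = 0.171). At E14.5 the sums of 2 lists did not overlap: interstitium, at 23139 to 27182 in knockouts and 20858 to 22182 in controls, and adrenal cortex, at 736 to 998 in knockouts and 385 to 683 in controls. The interstitium sum did not stand for its markers, of which 3 of 8 had a positive log2 change, with a median of -0.16. With limma 0 of the 8 passed, and at an unadjusted p under 0.05 1 was higher and 2 lower. The 2 adrenal cortex markers that were not tested, Cyp11b1 and Cyp21a1, differed from each other at E14.5. Cyp11b1 was higher without overlap, at 64.7 to 82.6 in knockouts and 25.04 to 53.4 in controls. Cyp21a1 overlapped, at 36.7 to 103 in knockouts and 45.0 to 104 in controls. Of 3 Sertoli markers only Sox9 was tested, and it rose with stage by 1.497 in knockouts and by 1.66 in controls on the log2 scale. Of 8 germ cell markers, 5 passed as lower at the later stage in knockouts and 8 in controls, against 34.1% and 36.1% of all genes. At E14.5, 0 of the 8 passed between genotypes with limma, and 4 were lower in knockouts at an unadjusted p under 0.05, against 8.62% of all genes in either direction.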

How the data were processed

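Total RNA of whole ovaries was amplified and biotin-labelled with the Affymetrix 3' IVT Express kit, per the labels' protocols. The deposited values are probe set intensity values on a linear scale. Per the submitters' processing notes, the authors made them with MAS5 in Expression Console of Affymetrix; the sources used here give no versions. Each array had a mean of 500 after trimming 2% at either end, so a global difference in RNA amount is not visible. Precision is limited by the number of arrays.

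Values were taken as log2(signal + 16), which understates changes of dim genes. One linear model with 4 groups was fitted over 14 arrays in R 4.3.3 (limma 3.58.1 with lmFit and a trended eBayes; the data.table package, version 1.17.8), on the 27022 probe sets above the 40th percentile of mean signal. Tests were two-sided, with Benjamini-Hochberg adjustment over these, called at 0.05. Knockouts were set against controls at each stage, the difference of those effects was tested, and E16.5 was set against E14.5 in each genotype. Each gene is represented by the brightest of its probe sets on average. All 10 FGF genes are named, and other pathway genes up to 3 per list and comparison by smallest p where they pass. Fos and Spred1 did not pass in the E16.5 knockout comparison and were named there outside this rule, Fos after its value was seen. The members and lists were chosen with earlier results of these data known. Whether replicate numbers pair arrays was checked from the data. Same-numbered arrays did not deviate together at E14.5 and the result was mixed at E16.5, so the main fit used no pairing.

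Of 45037 probe sets, 34945 carried 1 gene symbol, 932 several and 9160 none listed. Gene IDs of 34754 of those with 1 symbol matched RefSeq (GRCm38.p6), with no symbol changed. Of the pathway lists, 17 of 17 other ligands, 7 of 7 receptors, 16 of 17 heparan sulfate genes, 11 of 17 transducers, 10 of 10 feedback inhibitors and 6 of 7 targets had a probe set of their own. Genes without one were not analysed here. The fit was tested on simulated data. Python 3.11.15 with matplotlib 3.10.9 drew the figures. Alternatives changed the pseudocount, scaling, filter, choice of probe set, spread model and arrays used, or added the replicate block or the Gapdh difference.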

Additional observations from a re-analysis of the deposited data

Results flagged for a closer look

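Over the 20 FGF probe sets, 40 groups of 4 arrays were checked for an array far from the others, and 3 had one whose gap to the nearest exceeded Dixon's critical share of the group's range; chance gives about 1 in 20 groups. Dusp6 was at 399 in E16.5 knockout replicate 4, against 539 to 542 in the other E16.5 knockouts (gap 0.980 of the range). Fgf1 was at 209 in E16.5 knockout replicate 3 on its brightest probe set, against 153 to 158 in the others (0.917). The dim probe set of Fgfr2 was at 90.1 in E16.5 control replicate 3, against 61.6 to 63.1 in the others (0.947).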

How the results depend on the processing

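The count of FGF probe sets past the threshold at E16.5 was 1 (Fgf2) and became 0 with the Gapdh 3' minus 5' covariate and without E16.5 knockout replicates 1 and 4 together; the cause was not tested. The stage counts of 9 in knockouts and 9 in controls became 2 and 3 with that covariate, which nearly coincides with stage. With it 12.9% of all tested probe sets passed for stage in knockouts and 7.48% in controls. The stage counts became 5 and 5 with the brightest probe set per gene, where fewer probe sets are tested. With each array left out in turn, the counts were 0 to 1 at E14.5, where the 1 was Fgf1 without knockout replicate 3, 1 to 1 at E16.5, 0 to 0 for the difference between stages, 9 to 11 for stage in knockouts and 8 to 9 for stage in controls.

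With the replicate number as a block, the FGF counts were 0 at E14.5, 1 at E16.5 (Fgf2, limma adjusted p = 0.0267) and 0 for the difference. Same-numbered arrays deviated together in 2 of 4 pairs at E16.5 (correlations -0.01 to 0.38) and 0 of 3 at E14.5 (-0.04 to 0.06). Differently numbered E16.5 arrays reached 0.24, so whether the numbers pair the E16.5 arrays is not settled. The Fgf2 change at E16.5 was -0.97 to -0.71 over all alternatives (limma adjusted p 0.00341 to 0.204).

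Of 490 combinations of a member gene's knockout result and an alternative, 487 kept their side of the threshold, and 15 values that did not pass changed sign; for stage these were 267 of 276, and 14. Median centring moved the median of all tested probe sets to -0.27 for stage in knockouts, against 0.06, and to -0.27 in controls, against 0.07. Counts over all tested probe sets moved more. With 1 array left out they were 73 to 778 at E16.5 (252 with all arrays), moving by over 1.5 times without any E16.5 array except knockout replicate 3, and 0 to 274 at E14.5 (3 with all), where 274 was without knockout replicate 3. Those for the difference were 0 to 40, against 0. Under the other alternatives they were 11 to 381 at E16.5, 0 to 30 at E14.5, 3480 to 22979 for stage in knockouts (17648) and 2020 to 23653 in controls (18379). Signals under 70.6 limit what can be said of Fgf7, Fgf10 and of Fgf2 at E14.5.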
